A study of Bos taurus with 12 samples.

Results

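The cytosolic ribosomal proteins were followed as 69 genes, read by 98 probe sets of an Affymetrix bovine expression array, out of 9155 genes with a symbol and 24128 probe sets in all. A probe set was a member where its annotation gave a single gene symbol made of RPL or RPS and a digit, or RPLP0, RPLP1, RPLP2 or RPSA, with the S6 kinases (RPS6K) left out. The symbols placed 43 genes (60 probe sets) in the large subunit and 26 genes (38 probe sets) in the small subunit. No probe set carried the symbol RPLP1, so that gene was not analysed here.

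The arrays came from mammary biopsies of 6 dry Holstein cows, taken 3 weeks before calving and cut into small explants that spent 2 h in culture with hydrocortisone, insulin and BrdU, a label for dividing cells. Intralobular stroma and epithelium were then cut from frozen sections of each biopsy by laser capture, which gave 6 stroma and 6 epithelium arrays paired by cow. All 12 captures shared the stage, the culture and the hormones, and no uncultured tissue was among them. The labels give lactation numbers of 1 to 3 while the methods describe the cows as multiparous, and which of these holds was not settled. Stroma is a tissue compartment and not 1 cell type: of the tested markers, 13 of 13 for fibroblasts, 5 of 6 for endothelium and 2 of 2 for B and plasma cells were higher in stroma (limma adjusted p under 0.05), while 13 of 16 luminal epithelial markers were lower.

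A ribosome is built of a small subunit, which reads the messenger RNA, and a large subunit, which joins the amino acids. Each subunit is a core of ribosomal RNA with proteins bound to it, and most of these proteins are needed in equal numbers. Their messenger RNAs are among the most abundant of a cell, and most start with a terminal oligopyrimidine (TOP) tract through which the TOR pathway controls their translation. Mammary epithelium makes large amounts of secreted protein once lactation starts. The arrays read messenger RNA, not ribosomes or translation.

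Values are log2 expression values from robust multiarray averaging (RMA), so that a difference of 1 is a factor of 2, and differences are stroma minus epithelium within cow, averaged over 6 cows. The ribosomal protein probe sets were bright. A gene was read from its brightest tested probe set, and 67 of the 69 genes had one bright enough to be tested, 42 in the large and 25 in the small subunit. Over all 12 arrays the median of these 67 levels was 10.5, against array medians over all probe sets of 2.95 to 3.08. RPL3L, a form of RPL3 known from muscle in mouse and human, was too dim to be tested, with means of 2.93 in stroma and 2.29 in epithelium. RPS19BP1, which carries the symbol pattern but encodes a protein that binds RPS19 rather than a ribosomal protein, was also below the limit (3.26 in stroma and 3.83 in epithelium). The dimmest tested member was RPS19, with means of 4.21 in stroma and 3.85 in epithelium.

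Ribosomal protein messages were, as a group, about 1.4 times lower in stroma than in epithelium, in both subunits. The mean was lower in stroma for 64 of the 67 genes, against 58.7% of all tested probe sets and 70.0% of the 1000 brightest. The median difference was -0.53 in the large subunit, a factor of 1.45, and -0.52 in the small subunit, a factor of 1.43. The large subunit genes ran from -0.96 to 0.38, with the middle part (the interquartile range) between -0.71 and -0.40, and the small subunit genes from -1.43 to 0.71, with the middle part between -0.72 and -0.34. The median over all tested probe sets was itself shifted, by -0.18, and that over the 1000 brightest by -0.30. Relative to all tested probe sets the large subunit stood at -0.35 and the small subunit at -0.33, and relative to the 1000 brightest at -0.24 and -0.22.

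The lower values in stroma recurred from cow to cow. On the stroma arrays the median level of the large subunit was between 9.94 and 10.51, and on the epithelium arrays between 10.61 and 11.13, with no overlap. For the small subunit the stroma medians lay between 9.81 and 10.26 and the epithelium medians between 10.24 and 10.95, so that the groups overlapped only at the epithelium of cow 2. Within cows 1 to 6 the median difference of the large subunit was -0.87, -0.11, -0.66, -0.26, -0.50 and -0.48. That of the small subunit was -0.98, -0.26, -0.49, -0.40, -0.79 and -0.45. All 12 of these medians were below 0, and cow 1 had the largest difference and cow 2 the smallest in both subunits.

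**Figure D1:**
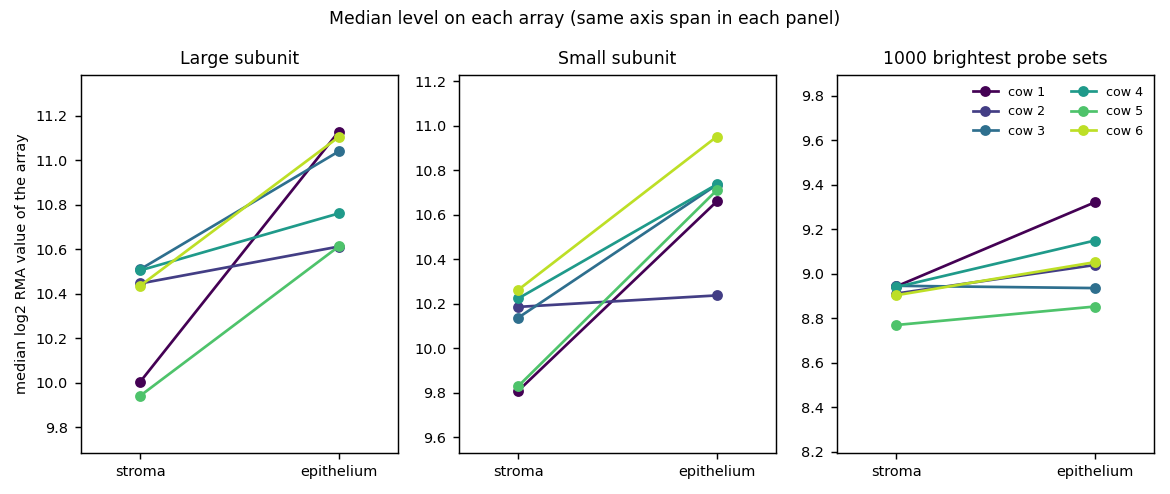
Median log2 RMA value on each array of the 42 large subunit genes, the 25 small subunit genes and the 1000 brightest probe sets, with the stroma and epithelium array of a cow joined by a line. The large subunit medians were 9.94 to 10.51 in stroma and 10.61 to 11.13 in epithelium, and every line of both subunits rises towards epithelium, that of cow 2 least.

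The median over all tested probe sets moved within the same cows by -0.18, -0.00, -0.04, -0.24, -0.27 and -0.21, and that over the 1000 brightest by -0.44, -0.07, -0.13, -0.33, -0.31 and -0.27. In cow 4 the large subunit (-0.26) was thus close to all tested probe sets (-0.24) and above the 1000 brightest (-0.33). In cow 1 and cow 3 it was well below both. Averaged over cows, the within-cow median was -0.48 ± 0.27 for the large subunit and -0.56 ± 0.27 for the small subunit (SD, n = 6). Small minus large was -0.11, -0.15, 0.16, -0.14, -0.29 and 0.03 in cows 1 to 6. No difference in one direction between the subunits was seen in these values.

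**Figure D2:**
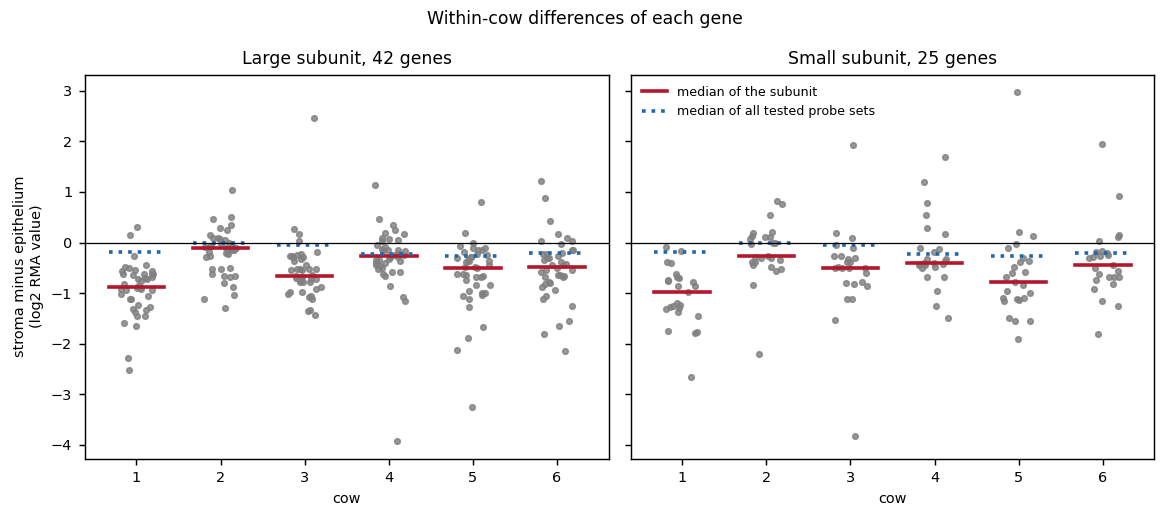
Stroma minus epithelium difference (log2 RMA value) of each ribosomal protein gene within each cow, with 1 point a gene, a solid red bar at the median of the subunit and a dotted blue bar at the median of all tested probe sets. The red bars lie between -0.98 and -0.11, below the blue bar in every cow.

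Counts of cows per gene gave the same picture. Of the 67 genes, 30 were lower in stroma in all 6 cows (19 of the large and 11 of the small subunit), against 9.32% of all tested probe sets and 16.8% of the 1000 brightest. None was higher in stroma in all 6 cows, against 7.04% of all tested probe sets. In 11 genes the stroma and epithelium arrays did not overlap at all, each lower in stroma, against 2.79% of all tested probe sets and 6.4% of the 1000 brightest. None did so with higher values in stroma, against 3.39% of all tested probe sets. These were RPL4, RPL7, RPL8, RPL9, RPL10 and RPL14 of the large subunit and RPS3, RPS3A, RPS4Y1, RPS7 and RPS13 of the small subunit. After a centring that set the tested median of every array to 0, the subunit medians were -0.36 and -0.34 for the large and small subunit. This centring takes out the general shift of all tested probe sets (-0.18), but not all of the larger shift of the 1000 brightest (-0.30). The mean was then lower in stroma for 62 of 67 genes (against 50.5% of all tested probe sets), 11 were lower in all 6 cows (against 6.85%), and 5 did not overlap (against 2.1%). The centred shares were not taken for the 1000 brightest. Centred on the median level of the 1000 brightest instead, the subunit medians were -0.38 and -0.36, and that of the large subunit was below 0 in 5 of 6 cows. That level averaged 8.90 in stroma and 9.06 in epithelium, so it moved less than the median difference of these probe sets. Relative to that median difference the subunits stood nearer to 0, at -0.24 and -0.22 as given above.

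Gene by gene, none of the 67 passed an adjusted p of 0.05 in limma with its default prior, where 4.76% of all tested probe sets were called lower and 4.54% higher in stroma. At an unadjusted p under 0.05, 7 genes were lower in stroma (RPL8, RPL10, RPL14, RPS4Y1, RPS14, RPS15 and RPSA) and none higher, against 14.6% and 8.88% of all tested probe sets. The spread of these genes over cows was smaller than that of the array as a whole, and part of that gap was shared by other bright probe sets. The SD over cows of the within-cow difference had a median of 0.46 in the ribosomal protein genes, 0.80 in the 1000 brightest probe sets and 1.26 in all tested probe sets. The default prior draws the variance of every probe set part of the way towards 1 common value, an SD of 0.81. The residual SD of the member probe sets had a median of 0.37. Both are residual SDs of single values, a smaller scale than that of the SDs of differences above. The smallest standard error the default prior gave a member was 0.31.

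When the prior was allowed to follow the brightness of a probe set and was made robust to outliers, its SD at the members was 0.40 and 11 of the 67 genes were called, each lower in stroma, against 4.92% of all tested probe sets and 8.8% of the 1000 brightest. They were RPL4, RPL7, RPL9, RPL10, RPL14 and RPL23, and RPS3A, RPS4Y1, RPS7, RPS15 and RPS15A. No gene was called higher, against 4.62% of all tested probe sets. That count rested on all 6 cows: without 1 of them it was between 1 and 7, lowest without cow 1, and RPL10 was called each time. RPL10 was also the single gene called under this prior after each array was centred.

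**Figure D3:**
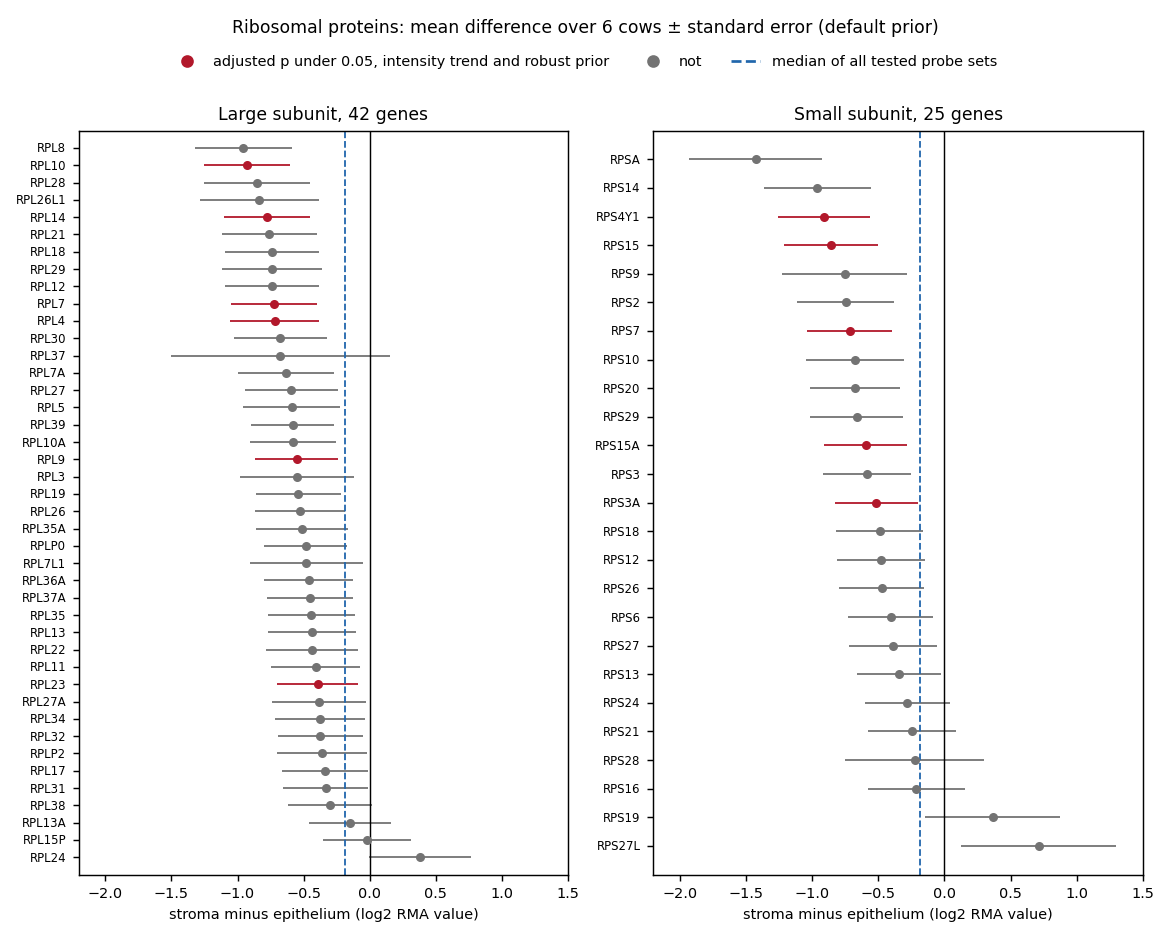
Stroma minus epithelium difference (log2 RMA value) of the 42 large and 25 small subunit genes, mean of 6 cows with the limma standard error under the default prior. Red points passed an adjusted p of 0.05 only under the brightness-dependent robust prior, the dashed line is the median of all tested probe sets at -0.18, and RPL24, RPS19 and RPS27L lie above 0.

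RPL10, a late-joining protein of the large subunit near its catalytic centre, was the gene with the firmest difference. Its brightest probe set had 9.82, 10.39 and 10.87 (lowest, median and highest) on the stroma arrays and 10.88, 11.31 and 11.62 on the epithelium arrays. That probe set is of a type shared between transcripts (_s_at). The groups did not overlap, but the highest stroma value (cow 3) came close to the lowest epithelium value (cow 5). The difference was -0.93 with a standard error of 0.33, a factor of 1.90, with a limma adjusted p of 0.124 under the default prior and 0.00802 under the brightness-dependent robust prior. A dimmer probe set of RPL10 lay further apart, at 6.66, 7.18 and 7.70 in stroma and 7.99, 8.64 and 8.94 in epithelium. It was the single tested member probe set called lower in stroma under the default prior (-1.33 ± 0.34 SE, limma adjusted p 0.0464). The call was close to the limit: without any 1 of the cows the adjusted p was between 0.073 and 0.135, and after centring it was 0.0865.

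RPL8 binds the ribosomal RNA near the site of peptide bond formation. It had 8.24, 9.21 and 9.43 in stroma and 9.60, 10.07 and 10.39 in epithelium, with no overlap. Its difference was -0.96 ± 0.37 (SE, limma adjusted p 0.156), and the stroma of cow 6 was far below the other 5 (difference -2.15 in that cow). RPL14, known for an alanine stretch of variable length in human, had 8.80, 9.31 and 9.65 in stroma and 9.83, 10.05 and 10.21 in epithelium, with a difference of -0.78 ± 0.33 (SE, adjusted p 0.191, and 0.0467 under the brightness-dependent robust prior). RPL28 had 7.78, 9.17 and 9.77 in stroma and 9.38, 9.84 and 10.32 in epithelium. Its groups overlapped, with a difference of -2.27 in cow 1 and 0.18 in cow 5.

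In the small subunit the largest difference was that of RPSA, the protein also known as laminin receptor. It had 6.77, 7.38 and 7.85 in stroma and 7.63, 8.33 and 11.22 in epithelium. It was lower in stroma in 6 of 6 cows, by a factor of 2.69 on average (-1.43 ± 0.50 SE, limma adjusted p 0.124). That size came in part from cow 3, whose epithelium stood at 11.22 while the next was 8.53, and without cow 3 the difference was -0.95.

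RPS14, on the platform of the small subunit, had 8.54, 10.02 and 10.62 in stroma and 10.34, 10.82 and 11.28 in epithelium. Its difference was -0.96 ± 0.41 (SE, adjusted p 0.195 in limma), with little in cow 2 (0.11) and cow 3 (-0.11) and much in cow 5 (-1.91) and cow 6 (-1.80). RPS15, at the head of the small subunit, had 9.62, 10.05 and 11.26 in stroma and 10.87, 11.11 and 11.18 in epithelium. It was lower in stroma in 5 of 6 cows, and the stroma of cow 6 was the highest of all 12 arrays. RPS9, which has a part in the accuracy of decoding in yeast, was dim for a ribosomal protein, at 5.32, 6.67 and 8.40 in stroma and 7.08, 7.31 and 8.44 in epithelium (-0.75 ± 0.47 SE, adjusted p 0.373).

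The 2 genes with the smallest SD over cows in each subunit had differences at the subunit median or nearer to 0. RPL9 was nearly as even, with an SD of 0.20, and differed by -0.55. RPL23, a protein at the face between the subunits that also binds MDM2 when free, differed by -0.39 with an SD of only 0.11 over cows, from -0.52 in cow 3 to -0.28 in cow 2. Its levels were 11.30, 11.50 and 11.74 in stroma and 11.69, 11.88 and 12.26 in epithelium. The arrays thus overlapped between cows although each cow was lower in stroma. RPS3A, which binds initiation factors, differed by -0.52 with an SD of 0.19, at 10.46, 10.66 and 10.79 in stroma and 10.98, 11.07 and 11.59 in epithelium. RPS13 differed by -0.34 with an SD of 0.22. RPL13A, known for a role outside the ribosome in the interferon response, had an SD of 0.17 and hardly differed, at -0.15 (11.70, 11.92 and 12.22 in stroma and 12.02, 12.09 and 12.18 in epithelium). After each array was centred, RPL13A stood at 0.02.

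At the other end, the 4 genes with the largest SD over cows for their subunit were dim. RPL37, a small zinc-binding protein, had an SD of 2.50, with 2.60, 6.03 and 8.13 in stroma and 4.29, 6.30 and 6.91 in epithelium. The stroma of cows 4 and 5 was at 2.93 and 2.60, while that of cow 6 was the highest of the 12 arrays. RPS27L (SD 1.63), RPS28 (SD 1.40) and RPL26L1 (SD 1.08) were the others. Brightness and spread went together: the 57 genes with a mean of at least 9 had a median SD of 0.41, and the 10 dimmer genes had medians of 0.96 (5 large) and 1.33 (5 small). Of the 57 bright genes 56 were lower in stroma.

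The 3 genes with a higher mean in stroma were RPL24, RPS19 and RPS27L. RPL24, which bridges the subunits, had 11.17, 11.55 and 11.65 in stroma and 10.44, 10.98 and 11.86 in epithelium. Its difference was 0.38 ± 0.38 (SE, limma adjusted p 0.597), with 4 of 6 cows higher in stroma. It was the 1 bright gene of this kind, and its dimmer probe set ran the other way. That probe set had 8.72, 9.61 and 9.90 in stroma and 10.13, 10.19 and 10.68 in epithelium, a difference of -0.76, with 6 of 6 cows lower and no overlap. RPS19, whose human gene is the one most often mutated in Diamond-Blackfan anaemia, was near the lower limit of the tested range and differed by 0.36 ± 0.51 (SE). The next highest was RPL15P in the large subunit, at -0.02, and RPS16 in the small subunit, at -0.21.

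RPLP0, RPLP2, RPS6, RPL5, RPL11 and RPS3 each had a lower mean in stroma, and none of these 6 passed the threshold under the default prior or the brightness-dependent robust one (RPS3 did with the brightness trend alone). Of the stalk, the flexible arm that recruits elongation factors, RPLP0 had 10.29, 10.47 and 10.89 in stroma and 10.58, 11.07 and 11.26 in epithelium (-0.49 ± 0.32 SE, adjusted p 0.396 in limma), lower in stroma in 6 of 6 cows. RPLP2, which sits on RPLP0, had 9.38, 9.88 and 10.55 in stroma and 9.64, 10.43 and 10.58 in epithelium (-0.36, lower in 4 of 6 cows). RPS6, the protein that S6 kinase phosphorylates, differed by -0.41 ± 0.32 (SE, limma adjusted p 0.489), at 10.72, 10.92 and 11.15 in stroma and 10.95, 11.37 and 11.57 in epithelium.

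RPL5 and RPL11 bind the 5S ribosomal RNA and, when free, hold MDM2 and so stabilise p53. RPL5 had 9.17, 10.58 and 10.95 in stroma and 10.76, 10.96 and 11.27 in epithelium, with a difference of -0.59 and its lowest value in the stroma of cow 5. RPL11 had 9.95, 10.63 and 11.35 in stroma and 10.89, 11.01 and 11.18 in epithelium, a difference of -0.41, with cow 6 higher in stroma. Both had a wider range in stroma than in epithelium. RPS3, at the entry of the messenger RNA channel and also a DNA repair protein, had 10.47, 10.97 and 11.35 in stroma and 11.37, 11.50 and 11.74 in epithelium, with no overlap (-0.59 ± 0.33 SE, adjusted p 0.324 in limma, and 0.0546 under the brightness-dependent robust prior).

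The wider range in stroma was not particular to these genes. The SD over arrays was larger in stroma than in epithelium for 45 of the 67 genes (67.2%), against 67.6% of all tested probe sets. Its median in the large subunit was 0.33 in stroma and 0.27 in epithelium, and in the small subunit 0.36 in stroma and 0.30 in epithelium.

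The 3 tested paralogs were dimmer than the genes they resemble and varied more over cows. Dim members had larger SDs in general, so the spread is not particular to paralogs. RPL26L1 differed by -0.83 with an SD over cows of 1.08, and RPL26 by -0.53 with an SD of 0.48. RPL7L1, whose yeast counterpart acts in the assembly of the large subunit, differed by -0.48 (SD 0.96) and RPL7 by -0.72 (SD 0.35). RPS27L, a p53 target in human cells, differed by 0.71 (SD 1.63) and RPS27 by -0.39 (SD 0.39). RPS27L ranged from -1.46 in cow 1 to 2.98 in cow 5 and passed no test, with an adjusted p of 0.504 in limma. RPL3L, which was too dim to be tested, was 0.63 higher in stroma, in 6 of 6 cows, but both of its means were below the array medians. RPL3 differed by -0.55 ± 0.43 (SE).

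Several probe sets of 1 gene did not always run together. 50 genes had a single probe set and 19 had several, up to 4. Of the 21 tested probe sets that were not the brightest of their gene, 14 were lower and 7 higher in stroma, with a median level of 5.63. In 8 of the 15 genes with several tested probe sets, a dimmer one ran opposite to the brightest. Examples are RPS12, where 2 bright probe sets gave -0.48 and -0.60 and a dimmer one 0.62, RPL32 (-0.37, and -0.70 and 0.56 for the dimmer ones) and RPS7 (-0.72, and -0.32 and 1.02).

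In 2 genes a dimmer probe set was far higher in stroma. The symbol RPS4Y1, for which the RefSeq gene table gives the synonym RPS4, had a bright probe set at 9.24, 9.63 and 10.23 in stroma and 10.24, 10.56 and 11.04 in epithelium (-0.91 ± 0.35 SE, limma adjusted p 0.153). A further probe set annotated to it stood at 7.90, 8.25 and 8.74 in stroma and 2.06, 3.86 and 4.69 in epithelium. It differed by 4.63 ± 0.40 (SE, limma adjusted p 0.000346), higher in stroma in 6 of 6 cows. RPL15P, which the RefSeq table lists as a pseudogene, had a bright probe set without a difference (-0.02 ± 0.33 SE) at 9.95, 10.11 and 10.64 in stroma and 9.45, 10.36 and 10.59 in epithelium. A dim one had 5.25, 6.35 and 7.54 in stroma and 1.35, 1.70 and 3.98 in epithelium, with an epithelium mean of 2.05 that was below the array medians. It was bright enough to be tested only through stroma, so its difference gives a direction, higher in stroma in 6 of 6 cows, and no size or test. The 2 genes are the ones whose own probe sets disagreed most, and which transcripts these dimmer probe sets bind was not tested.

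**Figure D4:**
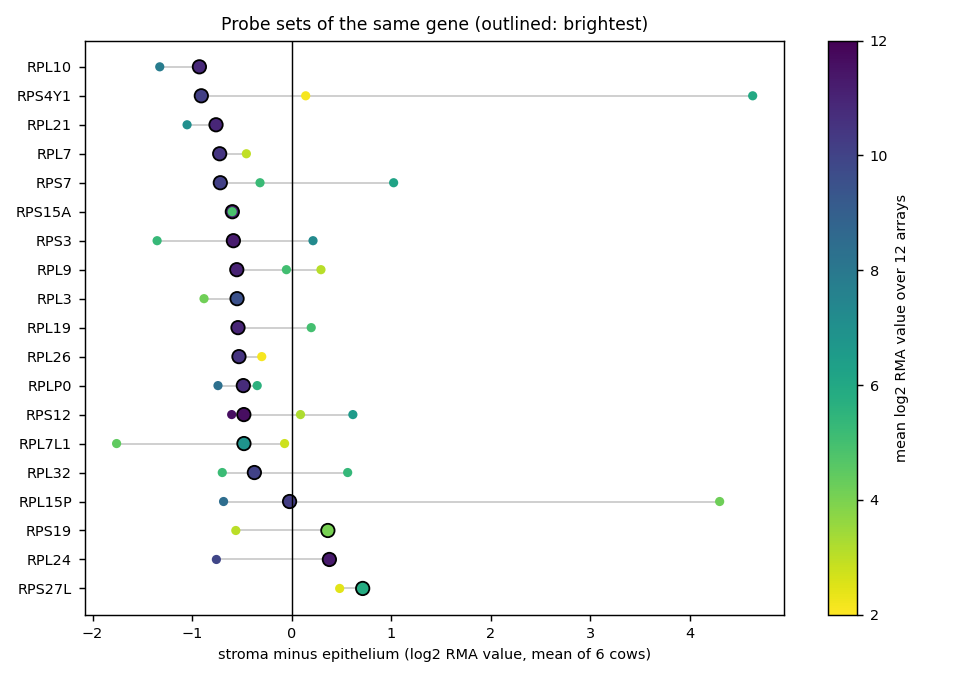
Mean difference over 6 cows, stroma minus epithelium in log2 RMA values, of every probe set of the 19 genes with several, coloured by mean level, with the brightest tested one of each gene outlined. The outlined points lie between -0.93 and 0.71, and single dimmer probe sets of RPS4Y1 and RPL15P lie above 4, the RPL15P one against an epithelium level below the array medians.

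The within-cow differences of most members were correlated with those of the others to some degree. Over the 6 cows the median pairwise correlation between 2 of the 67 genes was 0.34, and 62 genes had a correlation above 0 with the mean of the others. These points share the array, its normalization and its general shift, and no such correlation was taken over other genes, so they are a description. The genes below 0 were RPL7L1 (-0.56), RPL37 (-0.19), RPLP0 (-0.09), RPL8 (-0.04) and RPS13 (-0.00).

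FAU and RACK1 encode ribosomal proteins whose symbols lie outside the rule. RACK1, a scaffold on the head of the small subunit, behaved like the members, with means of 10.95 ± 0.32 in stroma and 11.55 ± 0.23 in epithelium (SD, n = 6 each). It was lower in stroma in 6 of 6 cows (-0.60 ± 0.31 SE, limma adjusted p 0.283, and 0.016 under the brightness-dependent robust prior). FAU, which encodes a ubiquitin-like protein fused to RPS30, had 9.60 ± 0.25 in stroma and 9.72 ± 0.15 in epithelium (SD), a difference of -0.12 ± 0.31 (SE, adjusted p 0.857 in limma).

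Other messages with a TOP tract had values close to those of the ribosomal proteins. The 12 tested had a median difference of -0.57 and a median SD over cows of 0.39, and 6 were lower in stroma in all 6 cows, against 9.32% of all tested probe sets and 16.8% of the 1000 brightest. None was called under the default prior. Under the brightness-dependent robust prior 4 of the 12 were called lower, against 4.92% of all tested probe sets and 8.8% of the 1000 brightest. They were EEF1A1, EEF1G, PABPC1 and RACK1. As RACK1 itself encodes a ribosomal protein, this list is not fully separate from the ribosomal proteins. EEF1G, a subunit of the elongation factor that reloads EEF1A1, was the furthest apart, with means of 8.30 ± 0.50 in stroma and 9.53 ± 0.28 in epithelium (SD, limma adjusted p 0.053 under the default prior). TPT1, a growth-related TOP message, was the exception, with 12.77 ± 0.10 in stroma and 12.68 ± 0.09 in epithelium (SD), higher in stroma in 5 of 6 cows.

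Translation factors had a similar median with more spread. Of 44 on the array 38 were tested, with a median of -0.52, a median SD of 0.89 and 8 lower in all 6 cows, against 9.32% of all tested probe sets. 3 were called, each lower in stroma, against 4.76% of all tested probe sets. EIF2B2, a subunit of the exchange factor that recharges EIF2, was called lower in stroma (-2.74 ± 0.57 SE, limma adjusted p 0.0187). ETF1, the release factor that ends translation (-1.97 ± 0.49 SE, adjusted p 0.0397), and EIF6, which keeps the subunits apart (-1.52 ± 0.38 SE, adjusted p 0.0386), were called lower as well.

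Mitochondrial ribosomal proteins, which make up the separate ribosome inside the organelle, had 51 of 67 genes tested and a median of -0.47, close to the cytosolic one, with a median SD over cows of 1.31. Of the 51, 3 were lower in all 6 cows, against 9.32% of all tested probe sets, and 3 were called lower, against 4.76%, both near these shares. The called genes were MRPL34, MRPL39 and MRPS22, at -2.67, -1.81 and -1.34. Ribosome biogenesis factors, which make ribosomal RNA and assemble the subunits, did not share the difference: 63 of 72 were tested, with a median of -0.14, 1 lower in all 6 cows and none called. The S6 kinases and TOR pathway genes (10 of 12 tested) had a median of 0.11, and none was called. The members thus stood apart from the mitochondrial ribosomal proteins by their small spread and not by the size of their median, and from the biogenesis factors in both, which is a description with no test and not matched on brightness.

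**Figure D5:**
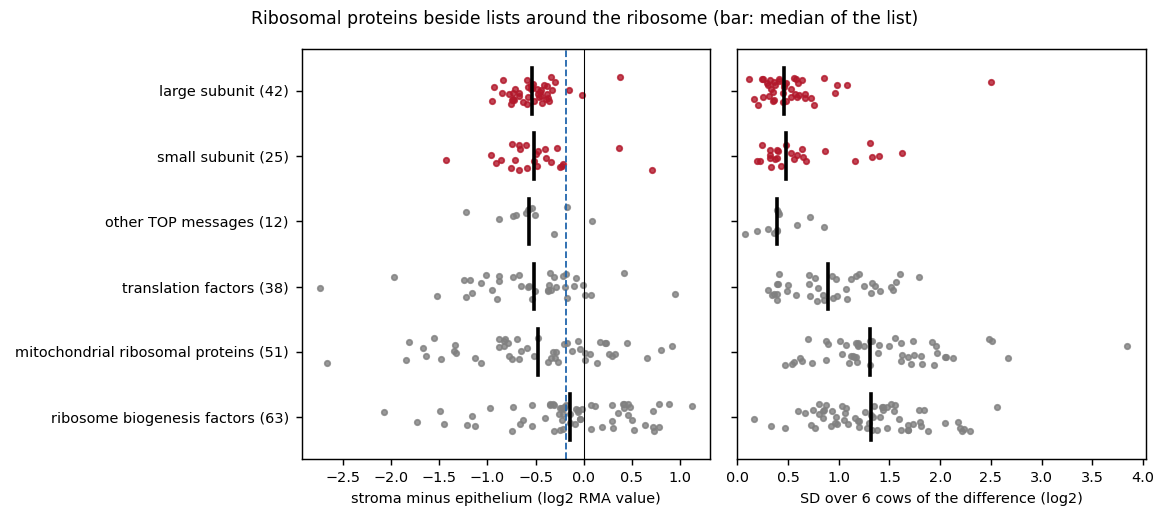
Stroma minus epithelium difference (left, log2 RMA value) and SD over 6 cows of that difference (right) for each tested gene of the 2 ribosomal subunits (red) and of 4 related lists (grey), with a black bar at the median. The medians of the difference are -0.53 and -0.52 for the subunits and -0.47 for mitochondrial ribosomal proteins, whose median SD is 1.31 against 0.46 for all cytosolic ones.

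Some properties of the captures moved with the tissue. Poly-A control RNA, which is normally added to a sample before amplification, had a mean of 7.02 ± 2.67 on the stroma arrays and 4.53 ± 1.08 on the epithelium arrays (SD, n = 6 each), higher in stroma in 5 of 6 cows (exact sign-flip permutation p = 0.0938, two-sided, 0.188 adjusted over 4 measures). Hybridization controls were lower on 5 of 6 stroma arrays (11.7 ± 0.57 in stroma and 12.3 ± 0.32 in epithelium, exact permutation p = 0.0625, 0.188 adjusted), and 6 cows allow no p below 0.0313. The gap between the 3′ and 5′ probe sets of GAPDH averaged 3.35 ± 0.90 in stroma and 2.67 ± 0.96 in epithelium (log2, SD, exact permutation p = 0.281). The methods report a low 3′ to 5′ ratio of GAPDH and take the starting RNA to be suitable. These gaps in RMA values are larger than that ratio, and the disagreement was not settled. GAPDH itself differed by -0.10 ± 0.39 (SE). Without cows 5 and 6, whose stroma arrays had the highest control RNA, the medians were -0.50 for the large and -0.48 for the small subunit. The tested luminal markers averaged 3.88 to 5.35 on the stroma arrays and 7.07 to 7.72 on the epithelium arrays, and the fibroblast markers 9.08 to 9.84 on the stroma arrays and 3.36 to 5.38 on the epithelium arrays. The part of cell makeup, amplification and input in the other values was not tested, and in a capture fewer cells of a type and less RNA per cell cannot be told apart.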

How the data were processed

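The deposited table holds 12 columns of log2 values, which the authors made with RMA (background correction, quantile normalization and probe set summary) over 24 arrays, 12 of them used here. Lysates of several slides were pooled per capture, more for stroma than for epithelium, so pooling cannot be told apart from tissue. The RNA was amplified with a whole-transcript kit before hybridization. Arrays have no read depth, so their number (6 a tissue) limits the precision. Detection calls were not used here, so the 10031 brightest probe sets other than 112 controls were tested (mean of at least 3.57 over the 12 arrays) in place of those the methods chose by such calls. Symbols came from the platform annotation: 13292 probe sets other than controls had 1, 86 several and 10724 none, and all 98 member probe sets matched a gene ID of the RefSeq table. No coordinates or sequences were used.

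Differences were fitted with limma (version 3.58.1, R 4.3.3; lmFit and eBayes, two-sided) with the cow as a fixed block and Benjamini-Hochberg adjustment over all tested probe sets at 0.05; the methods fitted tissue alone. Script steps used Python 3.11.15 and pandas 2.3.3, and the fit was tested on simulated data. The pairing comes from the design, in which both tissues were captured from each animal under 1 replicate number. Deviations of same-cow arrays correlated at 0.03 to 0.20. Array measures were compared by exact sign-flip permutation. Named genes were members past the threshold, the 5 lowest and 3 highest differences and the 2 smallest and 2 largest SDs of each subunit, the stalk proteins, RPSA, RPS6, RPS3, RPL5, RPL11, -like members with their parents, FAU and RACK1, and called genes of the other lists. RPL4, RPL7, RPL9, RPL32, RPS7, RPS12, RPS15A and TOP messages are named outside that rule, after their values were seen. The members and lists were chosen with earlier results of these data known. Macrophage markers (5 tested) and T and NK cell markers (5 tested) gave no call. Alternatives changed the block, prior, filter, normalization, probe set of a gene and cows.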

Additional observations from a re-analysis of the deposited data

Results flagged for a closer look

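In 68 groups of 6 arrays, taken from named genes, 1 array lay far from the other 5 in 7 cases by Dixon's ratio of gap to range. For independent groups chance gives about 1 in 20. These groups share arrays, and many of their genes were named for extreme differences or SDs, so the 7 cannot be set against that rate. In stroma, cow 6 was lowest for RPL7L1 (4.75, next 6.54), RPL8 (8.24, next 9.12) and RPS13 (9.54, next 9.92), and cow 1 for RPS27L (4.57, next 6.11). In epithelium, cow 2 was lowest for RPL15P (9.45, next 10.19), and the highest was cow 1 for RPS28 (5.53, next 4.20) and cow 3 for RPSA (11.22, next 8.53). The GAPDH gap between the 3′ and 5′ probe sets was largest on the stroma array of cow 6, at 4.75, and its part in the 3 low values of that array was not tested.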

How the results depend on the processing

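The median differences of the subunits kept their sign under all settings tried, at -0.57 to -0.36 for the large and -0.59 to -0.34 for the small subunit. The calls of members did not hold across priors. Against none lower in stroma, the large subunit had 7 with the brightness trend alone, 6 with trend and robust prior, and 1 (RPL10) each among the 1000 brightest probe sets or without shared (_s_at, _x_at) ones, while the small subunit had 6 with the trend alone and 5 with trend and robust prior. Without shared probe sets RPL10 was read from its dimmer one. With the mean over a gene's probe sets, 1 small subunit gene (RPS4Y1, 1.86) was higher in stroma, and RPL15P (1.20) and RPL24 (-0.19) changed sign. Signs also changed for RPL13A (0.0246) and RPL15P (0.15) after centring, and for RPL15P after a further quantile normalization (0.0466) and without cows 5 and 6 (0.049). With 1 cow left out RPL15P ranged over -0.13 to 0.10, above 0 without cow 1 or cow 6, and RPS28 over -0.45 to 0.26, above 0 without cow 1; the cause was not tested. Without the replicate block, as the methods fitted it, no gene read from its brightest probe set was called either under the default prior. The dimmer probe set of RPL10 was called lower in stroma (limma adjusted p 0.0189, against 0.0464 with the block). Of all tested probe sets, 462 and 481 were then lower and higher in stroma, against 477 and 455 with the block. With trend and robust prior the block mattered more: 11 large and 7 small subunit genes were called without it. Over all tested probe sets, 75 and 274 were lower in stroma among the 1000 and 5000 brightest, 267 to 404 with 1 cow left out, and 245 without cows 5 and 6. Higher in stroma were 46 and 239 among the 1000 and 5000 brightest. The trend alone, robust prior alone, 1000 brightest and cows 5 and 6 settings were chosen after seeing the data. Dim probe sets had the largest spread, so differences below a level of 9 were the least precise.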
